A study of Oryctolagus cuniculus with 16 samples.

Results

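TIMP1 encodes tissue inhibitor of metalloproteinases 1. It is described here as 1 gene of the 13788 gene symbols in the count table, over all 16 libraries. TIMP1 was chosen by its change with carotid ligation in earlier results of these same libraries, so its ligated against sham values are given as a description, with no test. The table also held TIMP3 and TIMP4, which are given for context, and TIMP2 was not analysed here.

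TIMPs are small secreted proteins that bind the active site of matrix metalloproteinases (MMPs) and so restrain the breakdown of collagen, elastin and other matrix proteins. TIMP-1, the product of TIMP1, is soluble, inhibits most secreted MMPs and also acts on cells in a cytokine-like way through surface partners such as CD63. TIMP-3 stays bound to the matrix and also inhibits several ADAM and ADAMTS proteases, and TIMP-4 has a more restricted tissue distribution. In the arterial wall the balance of MMPs and TIMPs bears on how the internal elastic lamina and the medial matrix are remodeled when flow changes. TIMP1 is widely known as a gene that cytokines and growth factors induce in vascular cells.

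The study raised flow through the basilar artery (BA) of female New Zealand white rabbits by ligating both common carotid arteries, and compared these animals with rabbits given sham surgery. Sham rabbits 3 and 4 (normal flow) and ligated rabbits 5 and 6 (high flow) were examined 24 h after surgery. Intima and media were laser-microdissected from frozen sections of the straight BA and of the basilar terminus (BT), the apex where the BA divides, and each library held pooled sections of 1 layer at 1 location of 1 rabbit. The 8 groups of location, layer and flow therefore held 2 libraries each, and the ligated and sham animals were different rabbits.

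Intimal libraries held 5211886 to 17686105 counts on named genes, and medial libraries held 2154863 to 11219236. Levels are TMM-scaled CPM (counts scaled to a common library size), which can be compared between libraries for the same gene but not between genes, since transcript lengths were not used. TIMP1 was counted deeply, with 2786 counts in its lowest library and 200503 in its highest, so counting error was 1.89% of the value at the lowest count and 0.223% at the highest. In these bulk samples fewer cells of a type and less RNA per cell cannot be told apart.

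The labelled layers were checked against cell type markers. The summed level of 9 endothelial markers was 1211 to 5793 CPM in the intimal and 524 to 1570 CPM in the medial sham libraries, and 2229 to 3849 CPM against 440 to 1151 CPM after ligation. The summed level of 6 smooth muscle markers was 67181 to 118112 CPM over the medial and 10579 to 74579 CPM over the intimal libraries. The intimal libraries thus held abundant smooth muscle transcripts beside their endothelial ones, and the endothelial sums of the layers overlapped in the sham rabbits. ESAM had a large part in the medial sham sums, at 472 to 702 CPM against 169 to 622 CPM in the sham intima. Of the 9 endothelial markers, 8 had a higher and 1 a lower level in the sham intima than in the sham media by log2 difference. None passed, and neither did any other of the 9639 genes tested (0%), so nothing is read from that count. Brain parenchymal markers summed to at most 8.98 CPM.

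In the sham rabbits TIMP1 was present in every tissue and its intimal levels lay below its medial ones. In the BA intima it stood at 453 CPM in rabbit 3 and 349 CPM in rabbit 4, a mean of 401 ± 73.8 CPM (SD, n = 2). In the BT intima it stood at 656 and 408 CPM, a mean of 532 ± 176 CPM (SD, n = 2). These 2 intimal groups overlapped. The medial values were 1005 and 932 CPM in the BT, a mean of 969 ± 52.0 CPM (SD, n = 2), and 1050 and 917 CPM in the BA, a mean of 984 ± 93.8 CPM (SD, n = 2). The medial groups overlapped each other, and none of the 4 medial sham libraries came down to the highest intimal sham library.

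In the ligated rabbits TIMP1 lay above every sham library in every tissue, and its levels were ordered by location, with the BT above the BA. The BA media stood at 5857 CPM in rabbit 5 and 2538 CPM in rabbit 6, a mean of 4198 ± 2347 CPM (SD, n = 2). The BA intima stood at 4763 and 6046 CPM, a mean of 5405 ± 907 CPM (SD, n = 2). These BA groups overlapped. The BT intima stood at 17324 CPM in rabbit 5 and 7902 CPM in rabbit 6, a mean of 12613 ± 6663 CPM (SD, n = 2). The BT media stood at 14646 and 11617 CPM, a mean of 13132 ± 2142 CPM (SD, n = 2). The BT groups overlapped each other and lay above all 4 ligated BA libraries.

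**Figure D1:**
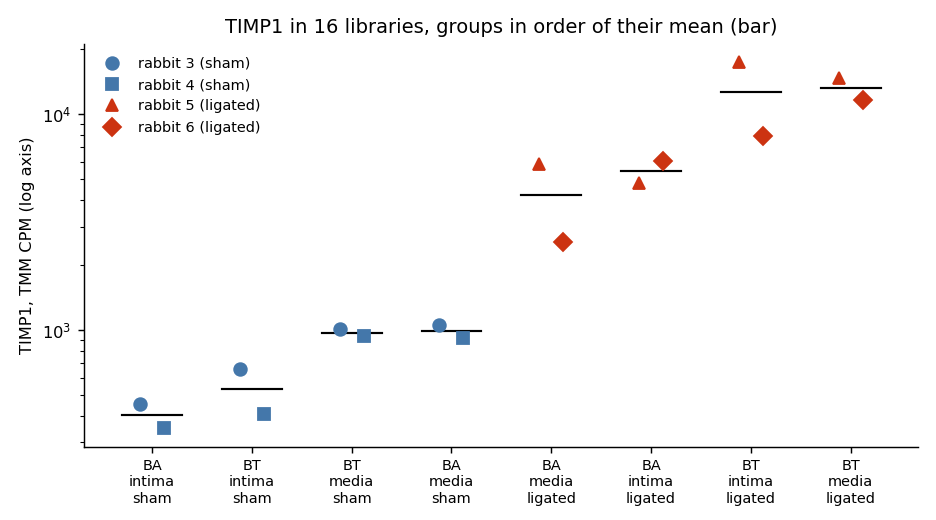
TMM-scaled CPM of TIMP1 (log axis) in the 16 libraries, by rabbit, with the 8 groups in order of their mean (bar). The values fell into 4 levels that did not overlap, from the sham intima (349 to 656 CPM) through the sham media (917 to 1050 CPM) and the ligated BA (2538 to 6046 CPM) to the ligated BT (7902 to 17324 CPM).

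Ordered by group mean, TIMP1 thus ran from BA intima sham and BT intima sham through BT media sham and BA media sham to BA media ligated, BA intima ligated, BT intima ligated and BT media ligated. Within each of these successive pairs the neighbours overlapped, and between pairs they did not. As a share of all counts on named genes, TIMP1 took 0.0369% to 0.0993% of a sham library and 0.226% to 1.99% of a ligated library. The highest share was that of the BT intima of rabbit 5.

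The spread between rabbits of a group was wider after ligation in some tissues. Rabbit 3 was above rabbit 4 in 4 of 4 sham tissues, by 1.08 to 1.61 times. After ligation rabbit 5 was 2.19 times rabbit 6 in the BT intima, 2.31 times in the BA media and 1.26 times in the BT media, whereas in the BA intima rabbit 6 was 1.27 times rabbit 5. With 2 rabbits a group these ratios rest on 1 pair of animals each.

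The change with ligation addressed how high flow altered expression in each tissue, and for TIMP1 it was the change that chose the gene. In the BA intima the ligated mean was 13.5 times the sham mean (log2 fold change 3.75 ± 0.53, SE), and the lower ligated library was 10.5 times the higher sham library. In the BT intima the ratio of means was 23.7 (log2 fold change 4.58 ± 0.67, SE), and the lower ligated library was 12.04 times the higher sham library. The intimal values of the 2 flow groups were thus far apart at both locations.

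The medial changes were less alike. In the BA media the ligated mean was 4.27 times the sham mean (log2 fold change 2.10 ± 0.39, SE), and the lower ligated library, rabbit 6, was 2.42 times the higher sham library. In the BT media the ratio of means was 13.6 (log2 fold change 3.77 ± 0.31, SE), and the lower ligated library was 11.6 times the higher sham library. The BA media stood apart by its smaller change. Its ligated rabbits were 2.31 times apart, near the 2.19 times of the ligated BT intima. Left out in turn, rabbit 5 brought the log2 fold change in the BA media to 1.38 and rabbit 6 brought it to 2.57.

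Among all genes tested, the log2 fold change of TIMP1 ranked 183 of 8974 in the intima and 507 of 8800 in the media of the BA, and 100 of 9273 and 386 of 8783 in those of the BT. Over all genes tested the median change was -0.10, -0.15, -0.13 and 0.03 on the log2 scale, with the tissues in that order. These positions describe size alone and take no account of error. For background, edgeR called 0 genes (0%) at an adjusted p below 0.05 in the BA intima and 0 (0%) in that of the BT, 71 genes (0.807%) in the media of the BA and 206 (2.35%) in the media of the BT. At an unadjusted p below 0.05 edgeR counted 534 and 1079 genes in the BA and BT intima, and DESeq2 called 118 and 613 genes there at an adjusted p below 0.05. Nothing is read from these shares for TIMP1.

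The difference between the changes is also given as a description. The log2 fold change with ligation was larger in the BT than in the BA by 0.80 ± 0.70 (SE) in the intima and by 1.66 ± 0.45 (SE) in the media. The intimal change exceeded the medial change by 1.64 ± 0.58 (SE) in the BA and by 0.80 ± 0.62 (SE) in the BT. The smaller change of the BA media enters both of the larger differences. Across all genes edgeR called 0 genes (0%) for the difference between locations in the intima, 2 genes (0.0213%) in the media, 0 genes (0%) for the difference between layers in the BA and 0 genes (0%) in the BT. At an unadjusted p below 0.05 it counted 301, 602, 252 and 570 genes, and DESeq2 was not run for these differences. With rabbit as a replicate block, 47 genes were called for the difference between locations in the media, and the value of TIMP1 there was 1.77.

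The comparison of layers asked where in the wall TIMP1 was expressed, and it did not use the contrast that chose the gene. In the sham rabbits the ratio of intimal to medial TIMP1 level within the same rabbit and location was 0.432 and 0.380 in the BA of rabbits 3 and 4, and 0.653 and 0.438 in the BT. TIMP1 was lower in the intima in 4 of 4 sham pairs. The intima against media log2 difference over the 8 sham libraries was -1.06 ± 0.26 (SE), which did not pass the test (edgeR, unadjusted p = 0.00219, adjusted p = 0.178). No gene passed in this comparison (0%), with 1128 genes at an unadjusted p below 0.05 in edgeR and 410 genes called by DESeq2. With rabbit as a replicate block, which uses that both layers came from the same animal, the log2 difference was -1.09 ± 0.20 (SE) and passed (edgeR, adjusted p = 0.0450), along with 136 of 9639 genes (1.41%). All 8 libraries came from rabbits 3 and 4, each sampled at both locations, and these samples are not independent of each other.

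After ligation no layer difference in TIMP1 was detected. The intima to media ratio was 0.813 in rabbit 5 and 2.38 in rabbit 6 in the BA, and 1.18 and 0.680 in the BT, so that 2 of 4 pairs went each way. The log2 difference was 0.15 ± 0.32 (SE) in the 8 ligated libraries (edgeR, adjusted p = 0.901), where 217 genes (2.35%) passed, 122 of them higher and 95 lower in the intima. The direction rested on rabbit 6, without which the log2 difference was -0.02. Among the listed genes described below, S100A10 was higher in the ligated intima (1.92 ± 0.34, SE, adjusted p = 0.0230). CD74 was lower there (-4.65 ± 0.84, adjusted p = 0.0240). Other listed genes passed too. Of the markers, 3 of 9 tested endothelial ones were higher, 3 of 7 fibroblast and leptomeningeal ones were lower, and 1 of 5 macrophage ones went each way. Of the other protease inhibitors 1 of 5 tested was lower. How many genes were called here depended on the fit.

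Over all 8 pairs the mean log2 ratio of intima to media was -0.47 ± 0.88 (SD, n = 8 pairs from 4 rabbits), with TIMP1 lower in the intima in 6 pairs and higher in 2 (exact sign-flip permutation test, two-sided p = 0.180, smallest possible 0.00781). The 4 sham pairs averaged -1.10 ± 0.34 (SD, n = 4), and the exact test gave p = 0.125, the smallest it can give for 4 pairs. The 4 ligated pairs averaged 0.16 ± 0.80 (SD, n = 4), with p = 0.875 in the same exact test. The 2 pairs of 1 rabbit are not independent of each other.

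**Figure D2:**
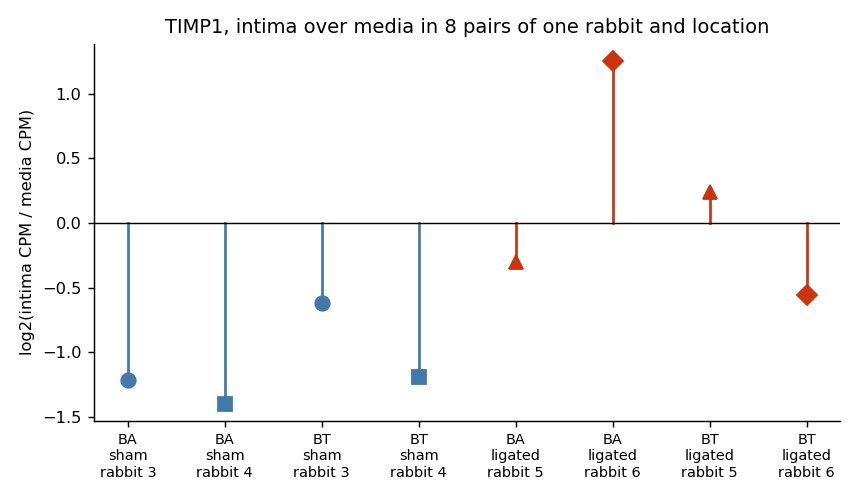
Log2 ratio of the intimal to the medial TMM-scaled CPM of TIMP1 in the 8 pairs of the same rabbit and location, where a value below 0 means a lower intimal level. All 4 sham pairs lay below 0 (ratios 0.380 to 0.653), and the ligated pairs lay on both sides (ratios 0.680 to 2.38).

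The comparison of the BT with the BA asked whether TIMP1 differed between the branch point and the straight vessel. In the sham intima it was higher in the BT in both rabbits, with BT to BA ratios of 1.45 and 1.17. The sham media was nearly level, with ratios of 0.958 and 1.02. The log2 differences were 0.41 ± 0.36 (SE) in the intima and -0.02 ± 0.36 (SE) in the media (edgeR, adjusted p = 1 in each). No gene passed in either (0% and 0%), with 233 and 373 genes at an unadjusted p below 0.05 in edgeR and 11 and 13 genes called by DESeq2.

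In the ligated rabbits TIMP1 was higher in the BT than in the BA in 4 of 4 pairs of the same rabbit. The ratios were 3.64 in rabbit 5 and 1.31 in rabbit 6 in the intima, and 2.50 and 4.58 in the media. The intimal ratio of rabbit 6 lay below that of sham rabbit 3, which was 1.45. The log2 difference was 1.22 ± 0.47 (SE) in the intima (edgeR, unadjusted p = 0.0248, adjusted p = 0.950) and 1.65 ± 0.47 (SE) in the media (edgeR, unadjusted p = 0.00555, adjusted p = 1). Neither passed, and no other gene did (0% and 0%). There were 434 and 312 genes at an unadjusted p below 0.05 in edgeR, and DESeq2 called 77 and 8 genes. In the intima the difference rested largely on rabbit 5, without which it was 0.39 on the log2 scale.

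TIMP3, the matrix-bound inhibitor, was present in every library, at 857 to 2764 CPM, and passed in none of the 4 tissues between ligated and sham rabbits. In the BA intima it stood at 1431 and 1623 CPM in the sham and at 905 and 857 CPM in the ligated rabbits. The log2 fold change of -0.79 ± 0.44 (SE) did not pass (edgeR, adjusted p = 0.861). In the BA media it stood at 1607 and 2764 CPM in the sham and at 1347 and 1206 CPM in the ligated rabbits. The log2 fold change of -0.76 ± 0.31 (SE) did not pass either (adjusted p = 0.339). The ligated libraries lay below the sham ones in both BA layers, though neither difference was past the threshold.

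At the BT the TIMP3 values overlapped between the flow groups. The BT intima held 1217 and 1512 CPM in the sham against 1267 and 1457 CPM in the ligated rabbits, with an adjusted p of 0.999 in edgeR. The BT media held 1586 and 2509 CPM against 1341 and 1919 CPM, a log2 fold change of -0.32 ± 0.33 (SE, edgeR, adjusted p = 0.676). TIMP3 did not differ detectably between layers, with an intima against media log2 difference of -0.54 ± 0.28 (SE, adjusted p = 0.509) in the sham and -0.40 ± 0.21 (SE, adjusted p = 0.365) in the ligated rabbits.

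The ratio of TIMP1 to TIMP3 counts within a library does not depend on how libraries are scaled. It was 0.215 to 0.653 over the 8 sham libraries and 2.10 to 13.7 over the 8 ligated libraries. Among the ligated libraries it was 4.35 and 2.10 for the BA media of rabbits 5 and 6, 5.26 and 7.06 for the BA intima, 13.7 and 5.42 for the BT intima, and 10.9 and 6.05 for the BT media. The lowest ligated ratio was thus that of the BA media of rabbit 6, the library with the lowest ligated TIMP1 level.

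TIMP4 was scarce and uneven. In the intima rabbit 3 gave 249 counts at the BT and 203 in the BA, and rabbit 6 gave 103 and 10 counts, while rabbits 4 and 5 gave 0 counts at both locations, each of which allows up to 3 counts. In the media all 8 libraries held it, at 16 to 117 counts and 4.72 to 17.4 CPM. Each intimal group thus held 1 rabbit with and 1 rabbit without TIMP4 counts. The medial log2 fold changes were -0.29 ± 1.08 (SE) in the BA and -0.20 ± 0.83 (SE) in the BT, and TIMP4 passed in no tissue (edgeR, adjusted p = 0.929 and 0.931 in the media).

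**Figure D3:**
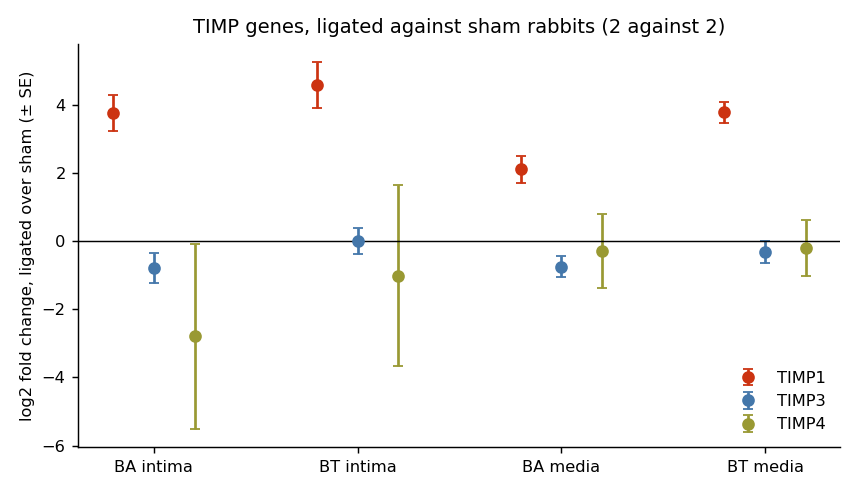
Log2 fold change (± SE) of TIMP1, TIMP3 and TIMP4 in ligated against sham rabbits, 2 against 2, in separate edgeR fits of the 4 tissues. TIMP1 lay between 2.10 and 4.58, TIMP3 between -0.79 and 0.00, and TIMP4 between -2.79 and -0.20 with SEs of 0.83 to 2.71.

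The MMPs are the enzymes that TIMP-1 inhibits. Of 21 MMP symbols listed, 16 had a count in some library and 9 to 12 were tested in a tissue, and edgeR called none of them, where it called 0%, 0%, 0.807% and 2.35% of all genes tested in the BA intima, BT intima, BA and BT media. A count of 0 in a list of this size is near those shares and is read no further. MMP2, a gelatinase expressed by smooth muscle cells and fibroblasts, was found in all 16 libraries, at 10.0 to 256 CPM. Its medial values were 84.9 and 256 CPM in the sham BA against 80.2 and 51.4 CPM after ligation, and 110 and 184 CPM in the sham BT against 63.3 and 89.3 CPM, and the log2 fold changes of -1.36 ± 0.55 (SE) and -0.94 ± 0.41 (SE) did not pass (adjusted p = 0.334 and 0.281). The tested MMPs had a median log2 fold change of -0.69 in the intima and -0.80 in the media of the BA, and of 0.44 and 1.36 in those of the BT, and no direction held across the tissues.

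Of the 6 ADAM and ADAMTS proteases that TIMP-3 is known to inhibit, 1 of 5 tested passed in the BT media, where 2.35% of all genes tested were called. This was ADAMTS4, an aggrecan- and versican-cleaving protease, which rose from 88.6 and 24.0 CPM in the sham to 602 and 351 CPM in the ligated BT media (log2 fold change 3.10 ± 0.54, SE, edgeR, adjusted p = 0.0130). In the BA media it stood at 55.1 and 16.8 CPM against 145 and 91.7 CPM, without passing. ADAM17, the tumour necrosis factor converting enzyme, stayed at or below 20.2 CPM throughout and did not pass.

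In the BT media, where 2.35% of all tested genes were called, 4 of 4 measured genes of the plasminogen activation list rose. PLAU (urokinase), PLAT (tissue plasminogen activator), PLAUR (the urokinase receptor) and S100A10 (a surface binder of plasminogen and its activators) feed the formation of plasmin, which itself activates several MMPs. PLAU stood at 32.8 and 56.5 CPM in the sham against 252 and 187 CPM in the ligated BT media (log2 fold change 2.30 ± 0.41, SE, edgeR, adjusted p = 0.0137). PLAT stood at 16.0 and 39.4 CPM against 233 and 220 CPM (3.03 ± 0.47, adjusted p = 0.00676).

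PLAUR and S100A10 showed the same separation of the flow groups in the BT media. PLAUR stood at 0.290 and 2.58 CPM in the sham against 52.0 and 106 CPM in the ligated rabbits (log2 fold change 5.63 ± 0.84, SE, edgeR, adjusted p = 0.00557). S100A10 stood at 55.5 and 83.7 CPM against 273 and 191 CPM (1.74 ± 0.38, adjusted p = 0.0377). In the other 3 tissues 0 of the 4 genes passed, where 0% of all genes were called in either intima and 0.807% in the BA media. The list median of 2.66 in the BT media stood beside medians of 1.66 (BA intima), 2.24 (BT intima) and 1.604 (BA media). The calls in the BT media were sensitive to the fit: a joint fit of all 16 libraries called 0 of the listed genes there, the calls of PLAU and S100A10 were lost without rabbit 5, and those of PLAU, PLAUR and S100A10 were lost without rabbit 6.

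Of the other extracellular protease inhibitors, CST3 and RECK fell. CST3 (cystatin C, a secreted inhibitor of cysteine proteases) fell in the BA media from 7246 and 10101 CPM to 3294 and 3030 CPM (log2 fold change -1.44 ± 0.24, SE, edgeR, adjusted p = 0.0455). It fell in the BT media from 12147 and 8866 CPM to 3705 and 2979 CPM (-1.64 ± 0.30, adjusted p = 0.0159). RECK, a membrane-anchored MMP inhibitor, fell in the BT media from 41.3 and 46.0 CPM to 4.05 and 5.73 CPM (-3.13 ± 0.68, adjusted p = 0.0358). Of this list 1 of 5 tested inhibitors fell in the BA media, where 0.807% of all genes tested were called. In the BT media 2 of 6 fell, where 2.35% of all genes were called. In the intima 0 passed, where 0% of all genes were called at either location, so nothing is read from that count. With any 1 of the 4 rabbits left out no listed gene passed in the BA media, and without rabbit 5 or rabbit 6 the calls of CST3 and RECK in the BT media were lost.

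**Figure D4:**
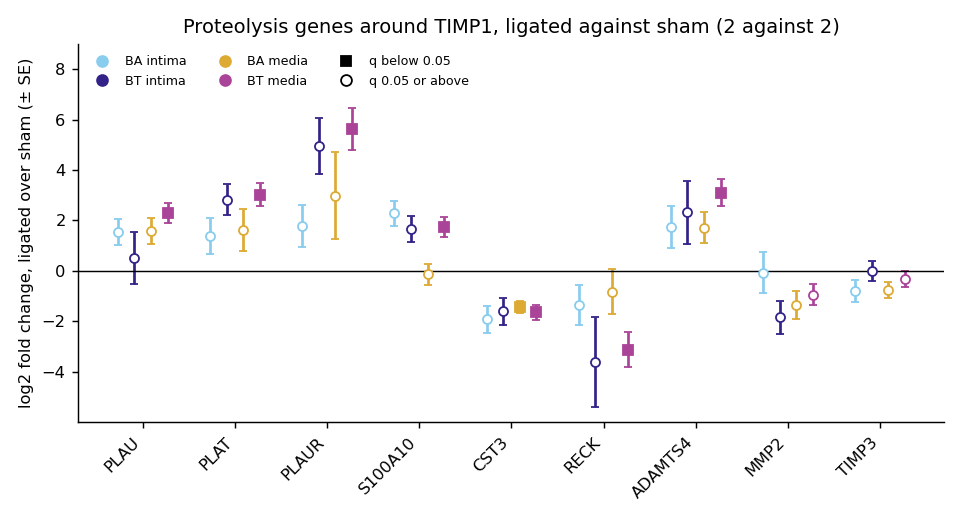
Log2 fold change (± SE) of proteolysis genes in ligated against sham rabbits (2 against 2) in the 4 tissues, with squares for adjusted p below 0.05 in edgeR and open circles otherwise. The genes shown passed in the proteolysis lists in at least 1 tissue, beside MMP2 and TIMP3, which did not; the 4 plasminogen activation genes passed in the BT media (1.74 to 5.63).

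Of 5 genes for surface proteins known to bind TIMP-1 or its complexes, 1 passed in any tissue, in the BA media, where 0.807% of all genes tested were called. CD63, the tetraspanin partner of TIMP-1, was steady at 1625 to 3120 CPM over the 16 libraries, with log2 fold changes between -0.11 and 0.38 that did not pass in any tissue. CD44, the hyaluronan receptor, stood at 14.7 and 22.1 CPM in the sham against 71.7 and 172 CPM in the ligated BA media (2.75 ± 0.56, edgeR, adjusted p = 0.0727) and did not pass. CD74, the invariant chain of class II antigen presentation, fell in the BA media from 171 and 186 CPM to 26.4 and 12.1 CPM (-3.23 ± 0.50, adjusted p = 0.0359), and was the gene of this list that passed. The call of CD74 was lost with filterByExpr, with edgeR's version 4 form and in the 16-library fit. ITGB1 and LRP1 did not pass.

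Signalling genes upstream of TIMP1 in other cell systems were also listed. IL6, the inflammatory cytokine, rose in the BT media from 2.61 and 0 CPM to 85.1 and 127 CPM (log2 fold change 6.58 ± 1.01, SE, edgeR, adjusted p = 0.00676), the 1 of 8 genes of the IL-6 family and STAT3 list to pass there. DESeq2 did not call IL6 (adjusted p = 0.0689), nor did the joint fit of all 16 libraries. It stood at 53.8 and 71.8 CPM in the ligated BA media, at 19.4 and 16.8 CPM in the ligated BT intima, and at 0 and 43.6 CPM in the ligated BA intima, while all 4 intimal sham libraries had 0 counts. STAT3 itself stayed between 18.5 and 63.3 CPM. None of the 6 or 7 tested AP-1, ETS and RUNX factors passed in any tissue, which is near the share of at most 2.35% over all genes. FOS and JUN had log2 fold changes below 0 in all 4.

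On its chromosome TIMP1 lies within the span of SYN1, a neuronal synaptic vesicle gene, in the RefSeq annotation of a later rabbit assembly. SYN1 stood at 0 to 1.16 CPM in the sham and 0.741 to 5.38 CPM in the ligated libraries. Of the 4 listed neighbours ARAF, SYN1, CFP and UXT, 3 or 4 were tested in a tissue. None passed between ligated and sham rabbits, which is near the share of at most 2.35% over all genes. The library kit does not mark strand, so reads of overlapping genes could not be separated by strand.

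Markers of other cell types moved with flow in the same libraries. The summed level of 7 fibroblast and leptomeningeal markers was 13975 to 19447 CPM in the sham media and 5296 to 8399 CPM in the ligated media, and 3371 to 7826 CPM against 1066 to 3554 CPM in the intima. In the BA media 3 of 7 of these markers passed, where 0.807% of all genes tested were called. DCN, COL3A1 and COL1A2 fell there (log2 fold changes -1.72, -1.69 and -1.50, edgeR, adjusted p = 0.0481, 0.0366 and 0.0481). These 3 calls were lost with filterByExpr, with edgeR's version 4 form and in the 16-library fit. In the BT media 1 of 7 passed, where 2.35% of all genes were called. This was COL3A1, which fell (-1.44, adjusted p = 0.0253), and its call was lost in the 16-library fit. Of the 6 smooth muscle markers, MYH11 and LMOD1 fell in the BT media (log2 fold changes -1.70 and -1.50, edgeR, adjusted p = 0.0221 and 0.0438), and both calls were lost without rabbit 5 or rabbit 6, that of LMOD1 also with library size only. The other members did not pass, with log2 fold changes of -2.10 for SYNPO2 and -0.29 for ACTA2, and of 1.05 for DES and 0.44 for SMTN. Within a layer TIMP1 was higher where the fibroblast and leptomeningeal sums were lower. Pearson's r was -0.842 over the 8 intimal and -0.781 over the 8 medial libraries on the log2 scale. This describes libraries that share rabbits and flow groups, and the difference between the flow groups leads it. Over all 16 libraries r was -0.464, and between the sham layers the media held both the higher sum and the higher TIMP1. For the leukocyte sum r was 0.737 (intimal) and 0.804 (medial). For the endothelial, smooth muscle and macrophage sums it lay between -0.391 and 0.282, and for brain parenchyma it was 0.365 and 0.664.

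S100A9, a calcium-binding protein of neutrophils and monocytes, was among 4 leukocyte markers with counts. The summed level of these markers was 44.8 to 461 CPM in the sham and 729 to 2602 CPM in the ligated intima, and 2.03 to 33.2 CPM against 44.3 to 732 CPM in the media. In the ligated intima S100A9 alone carried the sum, at 723 to 2574 CPM against 17.1 to 315 CPM in the sham. The other markers did not move with it there: S100A8 stood at 1.58 to 146 CPM in the sham and 0.513 to 28.5 CPM in the ligated intima, PTPRC, the common leukocyte antigen, stood at 0.224 to 20.2 CPM against 0 to 3.71 CPM, and 2 of 3 tested members in the BA intima had a log2 fold change below 0. S100A9 rose in the BT media from 0 and 2.26 CPM to 381 and 68.7 CPM (log2 fold change 7.38 ± 1.01, SE, edgeR, adjusted p = 0.00384). In the BT media S100A8 was also higher after ligation, at 0 and 9.52 CPM in the sham against 29.0 and 41.7 CPM. In the BA media it stood at 0 and 6.05 CPM against 26.9 and 7.34 CPM, and it passed in neither. The lymphocyte marker CD3E was at 0 in all 4 ligated medial libraries, and PTPRC did not pass in any tissue. The macrophage marker sum was 44.2 to 553 CPM in the sham and 32.5 to 134 CPM in the ligated libraries. In the ligated BT intima CD14 carried nearly all of it, with a mean of 87.8 CPM against 57.9 CPM in the sham. The mean of TYROBP there was 0.0412 CPM against 162 CPM in the sham. In the BT intima 5 of 6 tested members had a log2 fold change below 0, with a median of -9.11. In the BT media 4 of 5 were above 0, with a median of 0.69. No macrophage marker of the 5 or 6 tested passed between ligated and sham rabbits in any tissue. This is near the share of at most 2.35% over all genes and is read no further. The part of these markers' cells in the level of TIMP1 was not tested.

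Genes whose level followed that of TIMP1 were ranked by Pearson's r on log2(CPM + 1), as a description, over 6727 genes with a mean above 5 CPM. Over the 16 libraries the 5 most alike were RDH10 (r = 0.937), a retinol dehydrogenase of retinoic acid synthesis, SDF2L1 (0.918), an endoplasmic reticulum protein, LDHA (0.909), lactate dehydrogenase A, S100A11 (0.907), a calcium-binding protein, and ANKRD1 (0.905), a cardiac and vascular stress-response ankyrin protein. SDF2L1, LDHA, S100A11 and ANKRD1 were higher in all 8 ligated libraries than in any sham library, ANKRD1 at 860 to 2651 CPM against 0.224 to 26.6 CPM. RDH10 overlapped narrowly, at 88.6 to 455 CPM against 13.7 to 89.3 CPM.

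Such a ranking over libraries of both flow groups is led by the difference between the groups. RDH10 also shared the order of TIMP1 among the ligated libraries in part, with its lowest level of 88.6 CPM in the BA media of rabbit 6, where TIMP1 was lowest too. Within the 8 intimal libraries the most alike were RAP1B (r = 0.989), DUOXA2 (0.984) and DUSP22 (0.984), and within the 8 medial libraries MTX1 (0.980), CHI3L1 (0.966) and TUBB4A (0.964), so that none of these named genes was shared between the layers. TIMP3 stood at r = -0.347 over the 16 libraries, position 4989 in the same ranking.

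**Figure D5:**
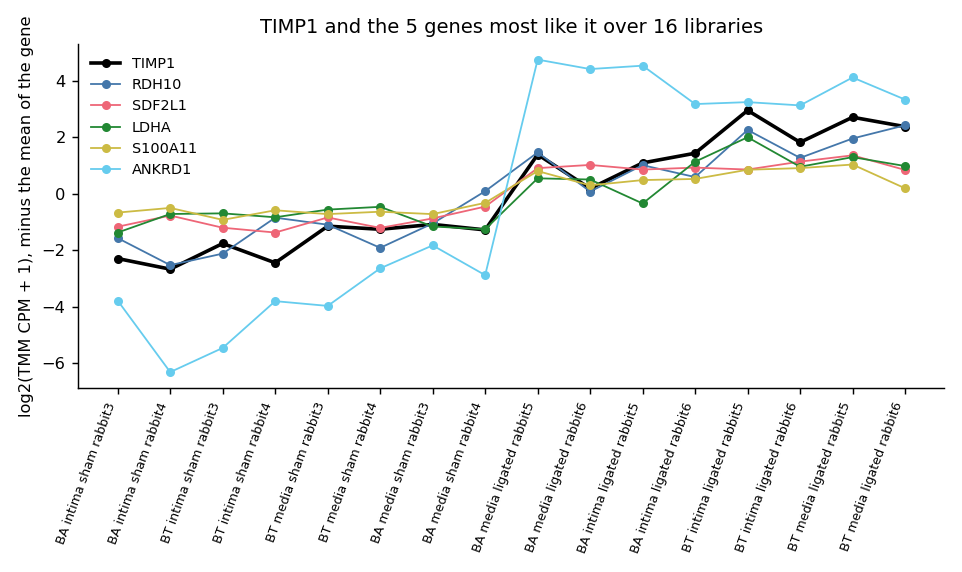
Log2(TMM CPM + 1) minus the mean of the gene over the 16 libraries, for TIMP1 and the 5 genes with the highest Pearson's r with it, with libraries ordered by the group means of TIMP1. The lines rise between the 8 sham and the 8 ligated libraries, most steeply for ANKRD1 (0.224 to 26.6 CPM in the sham, 860 to 2651 CPM after ligation).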

How the data were processed

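Total RNA of laser-microdissected intima and media from the BA and BT of 4 rabbits was amplified with a SMART-Seq v4 kit and made into Nextera libraries. The deposited table holds raw counts for each gene symbol, which the authors made with STAR, SAMtools 1.9 and featureCounts 1.6.2 on OryCun2.0 per the submitters' processing notes, after bcl2fastq 2.20.0.422, FastQC 0.11.5 and MultiQC 1.5. The authors counted with a reverse-strand setting, although the kit does not mark strand. All 16 columns entered the fits. Reads under no symbol, 13.8% to 18.7% of a library, were left out, and 22 symbols replaced by dates were kept as they stood.

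Counts were fitted with edgeR 4.0.16 in R 4.3.3 (TMM scaling, quasi-likelihood F test in its older form), in separate fits of 2 ligated against 2 sham libraries per tissue. Layers and locations were compared in 8 libraries of 1 flow group, and differences between changes in 8 libraries of 1 layer or location. Genes with a group mean above 1 CPM in any group were tested, and p-values were adjusted by the Benjamini-Hochberg method over all genes tested, with a threshold of 0.05. The standard error is the absolute log2 fold change divided by the square root of F. Labels name separate rabbits, so p-values of ligated against sham measure the spread between 2 animals a group. The layer and location fits kept 4 residual degrees of freedom (3 for the sham layers with rabbit as a replicate block). There the libraries of 1 rabbit from several tissues counted as separate, although only 2 rabbits were sampled. Paired ratios (pseudocount 0.5 CPM) were tested by an exact sign-flip permutation test in Python 3.11.15 with scipy 1.17.1. All 4 tissues came from the same animals, so rabbit numbers pair the layers and locations of a flow group. The correlation of the rabbits' deviations between tissues was -0.0217 to 0.461 over 6728 genes.

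Alternatives were library-size and RLE scaling, all genes with a count, filterByExpr, DESeq2 1.42.0, a 16-library fit, edgeR's version 4 form, rabbit as a replicate block, and each rabbit left out. For the layer and location comparisons the last was run in the fit of 8 groups, since no residual degrees of freedom remain otherwise. The fits were tested on simulated data. TIMP1, the gene lists and markers were chosen with earlier results of these data known. Genes named are the TIMP genes, members of these lists, and the 5 genes most like TIMP1 over 16 libraries with 3 in each layer. A listed gene is not reported here. Symbols were matched to RefSeq names of the mOryCun1.1 assembly for 12689 of 13788 symbols, and its gene spans were used only to find the neighbours of TIMP1.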

Additional observations from a re-analysis of the deposited data

How the results depend on the processing

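TIMP1 kept its direction, and its side of the threshold where it was tested, under 133 of 140 alternatives, 3 reversed it and 4 brought it past the threshold, and TIMP3 and TIMP4 did so under 128 of 143, with 15 reversed. The sham layer difference of TIMP1 passed with all genes with a count (-1.06 on the log2 scale, adjusted p = 0.0221), with DESeq2 (-1.10, adjusted p = 0.00768) and with rabbit as a replicate block (-1.09, adjusted p = 0.0450), and its adjusted p ran from 0.00768 to 0.605 over all alternatives. The ligated BT against BA media difference passed with all genes with a count (1.65, adjusted p = 0.0152) and in no other alternative. The replicate block changed no other call of a TIMP gene. The 8-pair ratio stayed between -0.74 and -0.20 with p from 0.0625 to 0.594, including the fit with no replicate block. The causes were not tested.

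With each rabbit left out in turn, the log2 fold change of TIMP1 ran from 3.87 to 5.02 in the BT intima, 1.38 to 2.57 in the BA media and 3.59 to 3.93 in the BT media, lowest without rabbit 5 in each. On the same scale TIMP1 ran from -0.063 to 0.023 for BT against BA in the sham media (reversed without rabbit 3), from -0.017 to 0.35 for intima against media after ligation (reversed without rabbit 6) and from -0.055 to 1.44 for location by flow in the intima (reversed without rabbit 5). TIMP3 ran from -0.14 to 0.13 in the BT intima, -0.62 to 0.055 in the BT media and -0.37 to 0.17 for layer by flow in the BA, and with library size only it was 0.012 in the BT intima and 0.19 for layer by flow in the BA. TIMP4 ran from -9.56 to 8.42 in the BT intima, -0.76 to 0.061 in the BA media, -0.55 to 0.28 in the BT media, -0.56 to 2.31 and -0.52 to 0.75 for location by flow in the intima and media, and -8.87 to 5.62 and -8.57 to 8.66 for layer by flow in the BA and BT.

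Counts of called genes depended more on the fit. Over the alternatives edgeR or DESeq2 called 0 to 126 genes in the BA intima, 0 to 613 in the BT intima, 0 to 507 in the BA media and 20 to 645 in the BT media between ligated and sham rabbits. Between layers they called 0 to 565 genes in the sham and 0 to 944 in the ligated rabbits. Between locations they called 0 to 82 and 0 to 63 genes in the sham intima and media, and 0 to 136 and 0 to 21 after ligation. For location by flow in the media 0 to 47 genes were called, and for layer by flow 0 to 2 in the BA and 0 to 30 in the BT. Of the listed genes 0 to 5 were called in the BA intima and 0 to 8 in the BT intima, against 0 to 10 and 0 to 11 in the BA and BT media. The counting error of TIMP1 was at most 1.89% of its value. With 2 rabbits a group and 1 library per rabbit and tissue, spread between animals and between library preparations cannot be told apart.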
